A study of Mus musculus with 22 samples.

Results

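The ephrin, semaphorin and axon guidance genes were taken by name as every array probe with 1 gene symbol from the ephrin (Efna, Efnb), Eph receptor (Epha, Ephb), semaphorin (Sema), plexin (Plxn), neuropilin (Nrp), netrin (Ntn), Slit, Robo and UNC5 (Unc5) families. The rule itself uses names and no measured value. The rule found 51 genes with 1 probe each, among 9378 probes with 1 symbol and 10500 probes on the array. They were 7 ephrin ligands, 10 Eph receptors, 18 semaphorins, 6 plexins, 1 neuropilin, 2 netrins, 2 UNC5 receptors, 2 Slits, 2 Robo receptors and Unc50. Unc50 has a symbol that begins with the same letters, but it is not a netrin receptor and is reported apart.

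Ephrins are ligands held in the cell membrane, and their Eph receptors are tyrosine kinases, so that signals pass in both directions where cells touch. Ephrin-A ligands are anchored by a lipid, and ephrin-B ligands span the membrane. Semaphorins act through plexins, and most of the secreted class 3 semaphorins also need a neuropilin. Netrins bind DCC and UNC5 receptors, and Slits bind Robo receptors. These proteins steer growing axons, and before axons form they also set cell boundaries in the neural tube, guide neural crest cells and pattern vessels. In mice, Epha7 and ephrin-A5 have been linked to the joining of the cranial neural folds.

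RNA came from the anterior neural tube of mouse embryos, and all groups carried the same Folr2-/- loss of a folate-binding membrane protein, so that no Folr2 wild-type embryos were among them. Pregnant Folr2-/- dams received 2 intraperitoneal injections, on gestational day (GD) 7 and day 8 at hour 12, either of sodium arsenate, dosed at 9.6 mg As/kg (arsenic), or of water at 10 µL per g (control). Embryos were taken at day 8 hour 15 (GD8:15), day 9 hour 0 (GD9:00) and day 9 hour 12 (GD9:12), so 3, 12 and 24 h had passed since the last injection. Arrays numbered 4 arsenic and 4 control at GD8:15, 3 arsenic and 4 control at GD9:00, and 4 arsenic and 3 control at GD9:12, and the question given in the labels was what arsenic changes at each stage. The labels give at least 4 dams per arm and stage but not which array came from which dam, so the spread behind each p-value is that between these samples and may in part be technical.

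Array medians ran from 123 to 291 on the deposited intensity scale, and log2 intensities of arrays within a group correlated across probes at 0.866 to 0.979. Folr2 itself had group means of 6.85 to 7.15 on the normalised log2 scale, below the filter on dim probes, whose limit was 7.2. Of 10 neural progenitor markers listed, 7 were on the array and all 7 passed the filter. Of 14 neuron markers, 12 were on the array and 7 passed. Other tissue was present too: summed intensities of 8 heart markers were 4638 to 11087 in arsenic and 16070 to 34285 in control arrays at GD8:15, and 2115 to 3475 and 2184 to 3988 at GD9:12. Sums of 5 blood markers were 2020 to 3898 in arsenic and 867 to 6761 in control arrays at GD9:00. At GD9:12 the blood sums were 17683 to 49644 and 16039 to 45470. The part of other tissue in the stage differences was not tested. Sex also differed between groups: Xist, which is expressed in females, had 232 to 533 in arsenic and 130 to 137 in control arrays at GD8:15, and 874 to 1306 and 137 to 420 at GD9:00. At GD9:12 Xist had 122 to 142 in arsenic and 118 to 2588 in control arrays. Xist thus also differed between stages within the arsenic arm. Numbers in the sample titles fall into 4 code series of unstated meaning. All arsenic arrays at GD8:15 were of series 4, all arrays at GD9:00 of series 3, and at GD9:12 all but control replicate 1. Stretches of consecutive probes with low signal (low runs) covered up to 15.7% of an array and held 29 values of 23 of the guidance genes, 14 of them on control GD9:00 replicate 1.

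Of the 51 guidance genes, 42 passed the filter and were tested. The 9 that did not were Sema3b, Sema3d, Sema6b, Sema6d, Sema7a, Plxnb3, Slit1, Ntn4 and Nrp1. Nrp1 failed for too few measured values and the others for dimness. The last tested gene above the limit was Sema4d with a mean log2 intensity of 7.23, and the first one below it was Sema3d with 7.17. Nrp1, a neuropilin that serves semaphorins and vascular growth factor, had placeholders in place of a measurement on 7 of the 8 GD8:15 arrays. Those 7 were all the arrays of code series 1 and 4. The other one, control replicate 3 of series 3, had a normalised intensity of 173, so the placeholders are not read as absence of the RNA at that stage. Of the 42 tested, 31 had a mean under 8, close to the floor of the arrays, where folds understate changes in RNA. In whole dissected tissue, fewer cells of a type and less RNA per cell cannot be told apart.

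**Figure D1:**
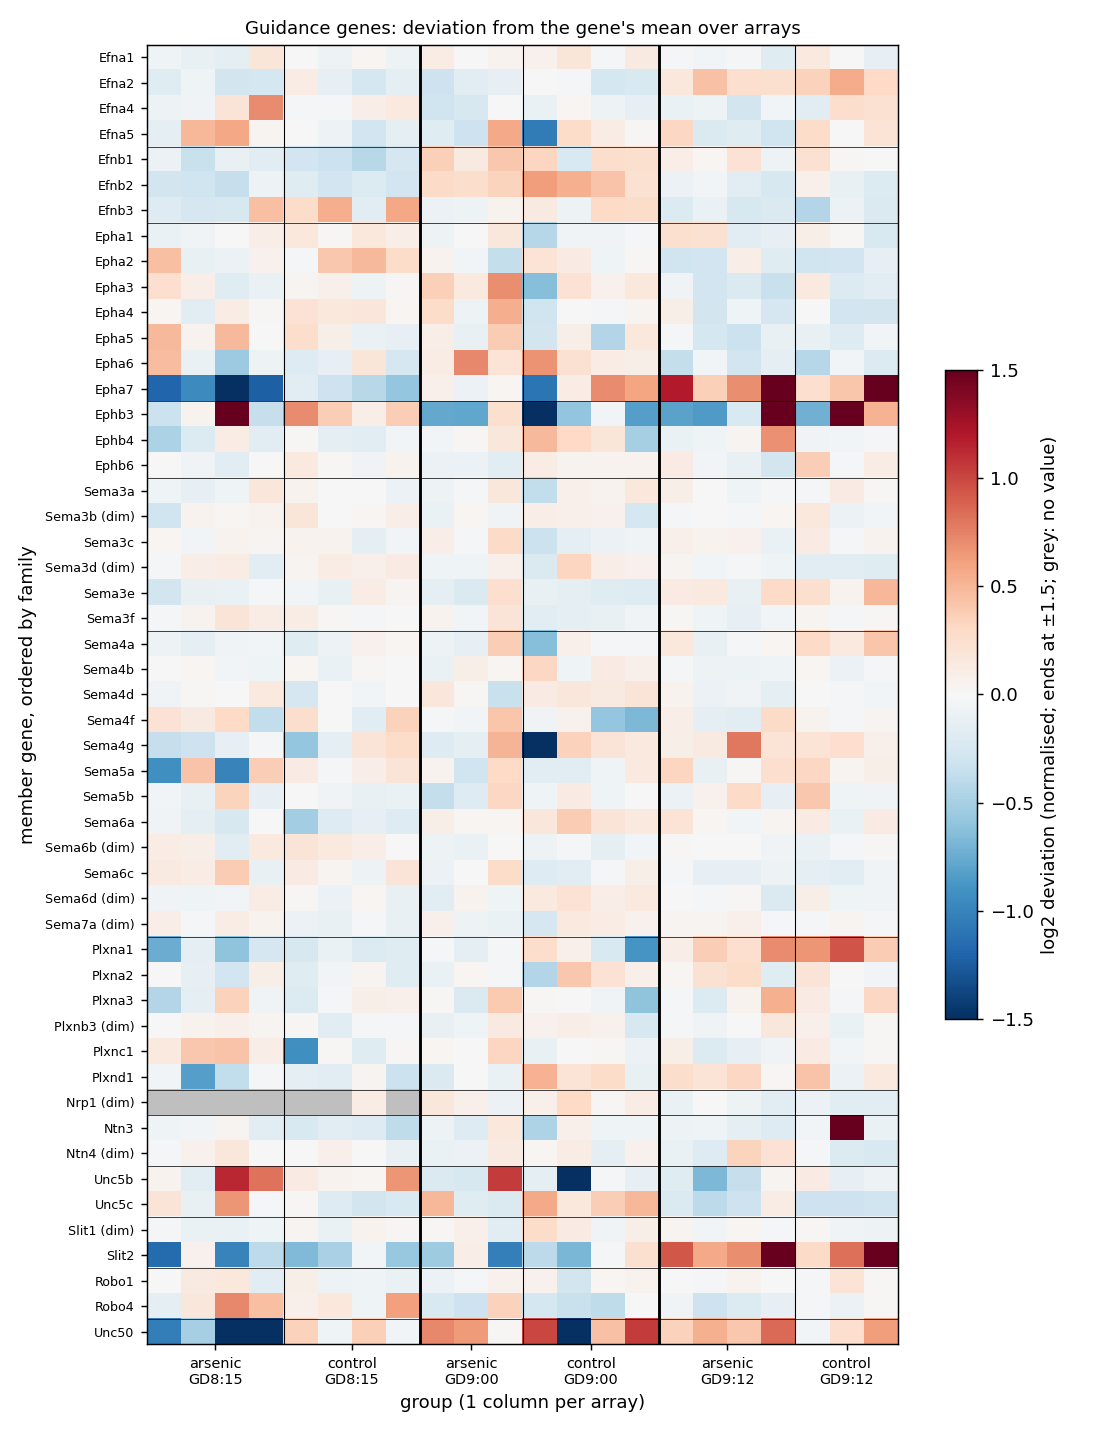
Deviation of each of the 51 guidance genes from its own mean over arrays (log2, colour), with 1 column per array and arsenic left of control at each stage. Genes below the filter carry the word dim, and grey marks Nrp1 placeholders. Group means of Epha7 and Slit2 were highest at GD9:12 in both arms, and that of Efnb2 at GD9:00.

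Arsenic exposure left no guidance gene past the threshold. limma called 0 of the 42 at GD8:15, 0 at GD9:00 and 0 at GD9:12, at a Benjamini-Hochberg adjusted p of 0.05 over 7833 probes, of which 0% were called at each stage. At an unadjusted p of 0.05, 4 of the 42 (9.52%) passed at GD8:15, against 7.29% of all probes. The counts were 5 (11.9%) against 12.6% at GD9:00, and 2 (4.76%) against 1.28% at GD9:12. The median difference of the members was -0.01 at GD8:15, 0.08 at GD9:00 and -0.04 at GD9:12 on the log2 scale, beside 0.00, 0.01 and -0.01 for all probes. The median SE of a member was 0.148 at GD8:15 and 0.16 at both later stages. Differences averaged over the stages gave 0 calls (0% of all probes, with 1 member and 5.72% of probes at an unadjusted p of 0.05), and so did the F test of a change of the arsenic effect between stages (0%, with 2 members and 6.46%).

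Among ligands, the 7 ephrins had arsenic differences from -0.36 (Efnb3) to 0.37 (Efna5) at GD8:15, from -0.19 (Efnb3) to 0.19 (Efna5) at GD9:00 and from -0.26 (Efna5) to 0.06 (Efnb3) at GD9:12. The 13 tested semaphorins ranged from -0.38 (Sema5a) to 0.15 (Sema6a), from -0.20 (Sema4d) to 0.43 (Sema4f) and from -0.26 (Sema4a) to 0.13 (Sema4g) at the same stages. Among receptors, the 10 Eph receptors ranged from -0.88 (Epha7) to 0.23 (Epha5), from -0.19 (Ephb6) to 0.45 (Epha3) and from -0.46 (Ephb3) to 0.25 (Epha7). The 5 tested plexins ranged from -0.25 (Plxna1) to 0.54 (Plxnc1), from -0.33 (Plxnd1) to 0.23 (Plxna3) and from -0.30 (Plxna1) to 0.04 (Plxna2). The 6 tested genes of the Slit, netrin, Robo and UNC5 families ranged from -0.18 (Slit2) to 0.35 (Unc5c), from -0.37 (Unc5c) to 0.71 (Unc5b) and from -0.88 (Ntn3) to 0.11 (Unc5c). Some of these extremes took in values from low runs of signal. At GD9:00 these were control replicate 2 for Unc5b (238, others 730 to 791) and replicate 4 for Plxna3 (126, others 185 to 195). They were replicates 3 and 4 for Sema4f (133 and 125, others 191 and 208) and replicate 1 for Efna5 (165, others 347 to 415). At GD8:15 arsenic replicate 1 lay in such a run for Sema5a and Plxna1. In the plot of arsenic differences, the intervals of most members include 0.

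**Figure D2:**
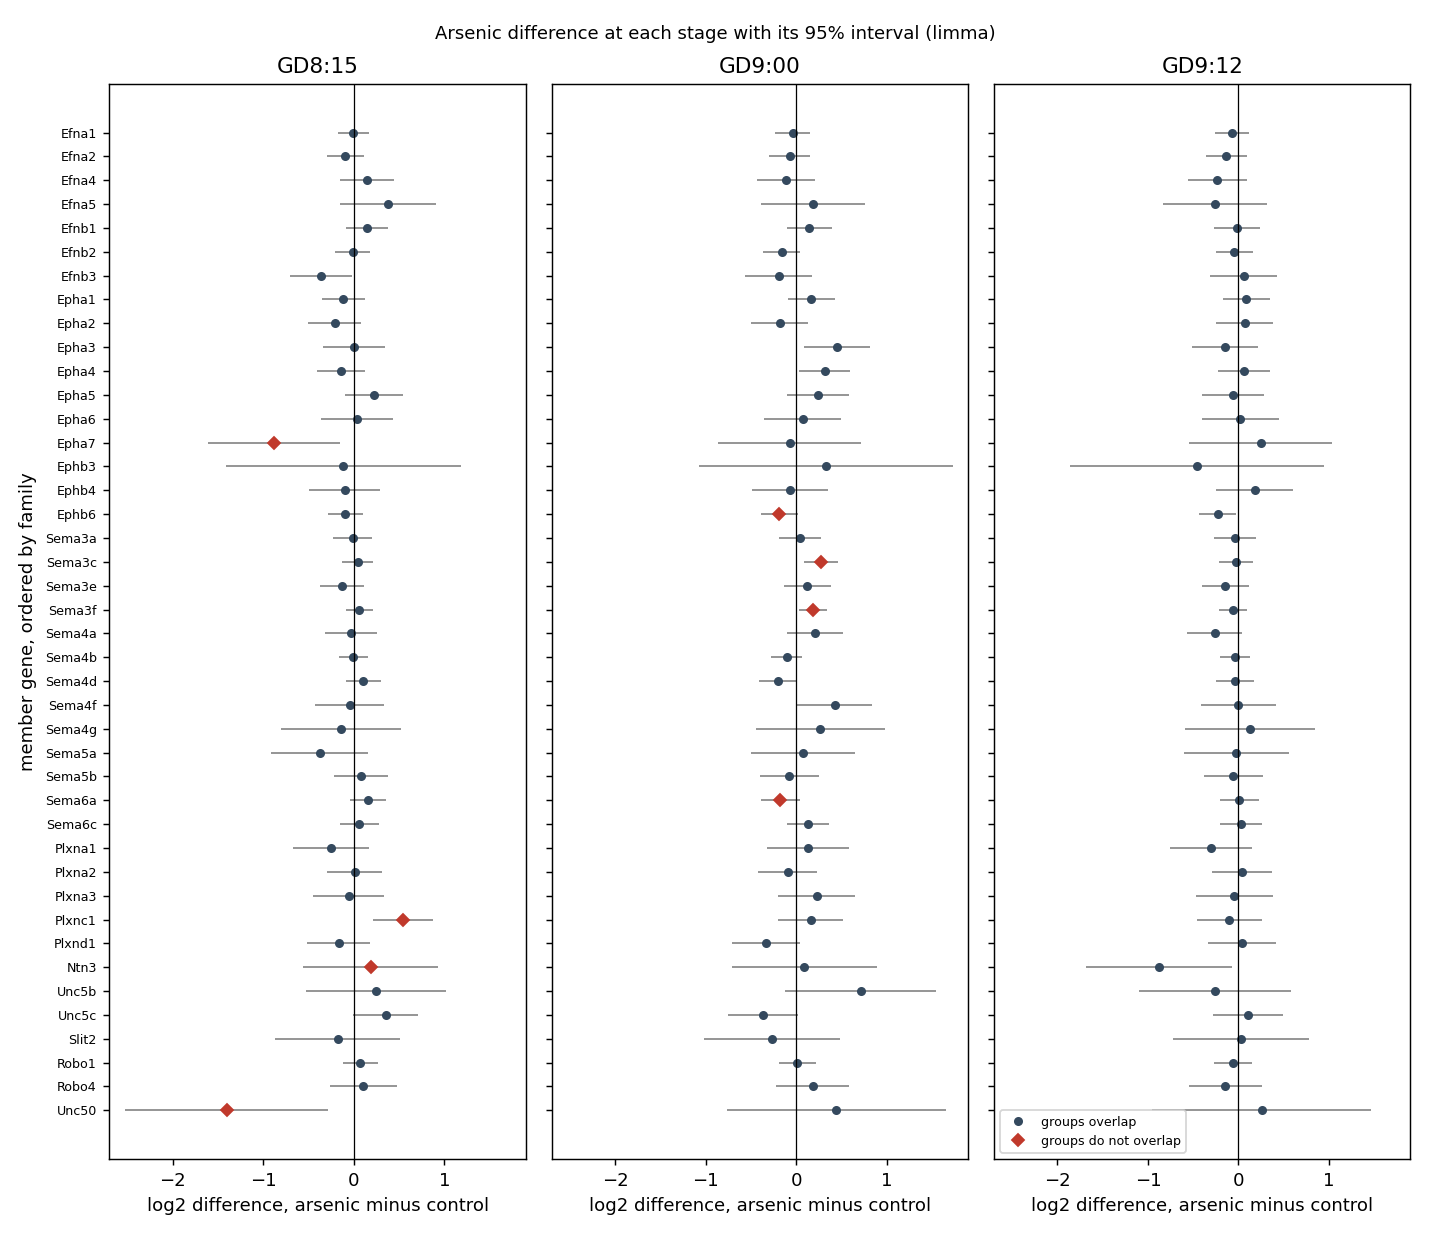
Arsenic minus control difference (log2, horizontal axis) of the 42 tested guidance genes at GD8:15, GD9:00 and GD9:12, with 95% intervals from limma and red diamonds where the arrays of the arms do not overlap. At GD8:15 these are Epha7, Plxnc1, Ntn3 and Unc50, at GD9:00 Ephb6, Sema3c, Sema3f and Sema6a, and at GD9:12 none of the 42.

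Arms did not overlap for 4 of the 42 members at GD8:15, against 3.84% of all probes, for 4 at GD9:00, against 9.64%, and for 0 at GD9:12, against 5%. Epha7, the receptor linked to neural fold joining, was 1 of the 4 at GD8:15. Its normalised intensities were 820, 970, 613 and 805 in arsenic and 1681, 1517, 1405 and 1257 in control arrays. All arsenic arrays were below all controls, with a log2 difference of -0.88 ± 0.35 (SE, 1.84-fold lower), which did not pass (limma adjusted p = 0.605). At GD9:00 the values were 1981, 1760 and 1911 in arsenic and 876, 2021, 3065 and 2828 in control arrays, a difference of -0.07 ± 0.38. At GD9:12 they were 4282, 2405, 3031 and 5921 in arsenic and 2230, 2499 and 5373 in control arrays, a difference of 0.25 ± 0.38. The arms overlapped at both later stages, at GD9:00 through control replicate 1 alone (876), since the other controls lay above all arsenic arrays. That replicate held 14 guidance genes in low runs of signal, though not Epha7. Only control replicates 2 and 4 shared series 4 with the arsenic arrays at GD8:15, and the difference with the code series as a block was -0.80 ± 0.44. Heart markers, with the sums given above, and 9 mesenchyme markers, with sums of 2114 to 4374 in arsenic and 4416 to 5879 in control arrays, also separated the arms at GD8:15, as did Xist. Their part in the Epha7 difference was not tested.

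Plxnc1, the receptor of Sema7a, had the lowest p of the members at GD8:15. Intensities were 244, 290, 296 and 236 in arsenic and 116, 222, 193 and 222 in control arrays. Each arsenic array lay above each control, by 0.54 ± 0.16 (SE) on the log2 scale (1.45-fold, limma adjusted p = 0.42). Control replicate 1, of code series 1, was the lowest, and the difference was 0.32 without it and 0.25 ± 0.12 with the code series as a block. At GD9:00 the intensities of Plxnc1 were 224, 220 and 276 in arsenic and 204, 221, 222 and 206 in control arrays, and at GD9:12 233, 190, 202 and 212 in arsenic and 238, 213 and 223 in control arrays. The arms overlapped at both. Efnb3, an ephrin-B ligand of the midline, had -0.36 ± 0.16 at GD8:15 (limma adjusted p = 0.641), with 200 to 325 in arsenic and 211 to 355 in control arrays.

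At GD9:00 the members of lowest p were Sema3c, Epha3, Sema3f and Epha4. Sema3c, which guides cardiac neural crest, had 195, 179 and 221 in arsenic and 145, 164, 171 and 175 in control arrays. All arsenic arrays were above all controls, by 0.27 ± 0.088 (SE; 1.21-fold, limma adjusted p = 0.267). Sema3f, a repellent that uses neuropilins, had 160, 150 and 176 in arsenic and 137, 140, 143 and 149 in control arrays, again without overlap (0.19 ± 0.075, adjusted p = 0.348). Control replicate 1 was the lowest control for both genes and held them in a low run of signal; with such values left out the differences were 0.22 and 0.17. Under the scaling of the authors they were 0.76 and 0.77 (adjusted p = 0.107 for both), so their size depends on the scaling. On that scale whole arrays differed too, with medians of 152 to 199 in arsenic and 123 to 131 in control arrays. The larger values thus include a shift of the arrays.

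Epha3, an EphA receptor, had 307, 267 and 388 in arsenic and 154, 279, 251 and 268 in control arrays at GD9:00, where 1 arsenic array overlapped the controls (0.45 ± 0.18 SE, limma adjusted p = 0.334). The other stages gave 285, 257, 213 and 225 in arsenic and 248, 253, 228 and 242 in control arrays at GD8:15, and 232, 197, 206 and 190 in arsenic and 266, 208 and 214 in control arrays at GD9:12. Control replicate 1 at GD9:00 was the lowest of all 22 arrays for this gene. Without array quantiles, by median centring alone, the difference was 0.21. Epha4, another EphA receptor, had 0.32 ± 0.13 and 248 to 382 in arsenic against 212 to 268 in control arrays (adjusted p = 0.358).

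At GD9:12 the lowest p belonged to Ephb6, an Eph receptor without kinase activity, with 201, 179, 171 and 153 in arsenic and 238, 182 and 199 in control arrays (-0.23 ± 0.098 SE, limma adjusted p = 1). The arms overlapped there. At GD9:00 Ephb6 was lower on all arsenic arrays than on all controls, with 173, 174 and 163 in arsenic and 199, 191, 191 and 192 in control arrays (-0.19 ± 0.098, adjusted p = 0.446). Ephb6 had the lowest p of the members for the average over the stages, at -0.17 ± 0.055 (adjusted p = 0.862). Ntn3, a netrin, had -0.88 ± 0.38 at GD9:12, with 154, 156, 148 and 142 in arsenic and 157, 877 and 151 in control arrays. That difference rests on control replicate 2 and was -0.04 without it. Sema4a, a membrane semaphorin, had -0.26 ± 0.15, with 174 to 209 in arsenic and 206 to 249 in control arrays.

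Guidance genes did change between stages. In controls, limma called 4 of the 42 between GD9:00 and GD8:15 (9.52%, against 15% of all probes), 6 between GD9:12 and GD9:00 (14.3%, against 11.3%) and 5 between GD9:12 and GD8:15 (11.9%, against 7.71%). In arsenic-exposed embryos the counts were 2 (4.76%, against 4.21%), 3 (7.14%, against 3.88%) and 6 (14.3%, against 13.8%). Most of these shares were near the background of the array. The arms have no array in common, but in both arms most GD8:15 arrays were of other code series than the later ones. With the code series as a block, no guidance gene stayed called in controls in either comparison with GD8:15. The block was not run in arsenic-exposed embryos. Efnb1 and Efnb2 were called in both arms between GD9:00 and GD8:15, Efnb2, Efna2 and Slit2 between GD9:12 and GD9:00, and Plxna1, Efna2 and Slit2 between GD9:12 and GD8:15, each with the same sign in both arms. Across the 42 members the differences of the arms correlated at 0.414, 0.646 and 0.664 in these comparisons, and over all 7833 probes at 0.601, 0.622 and 0.769. These correlations are across genes, which are not independent replicates.

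**Figure D3:**
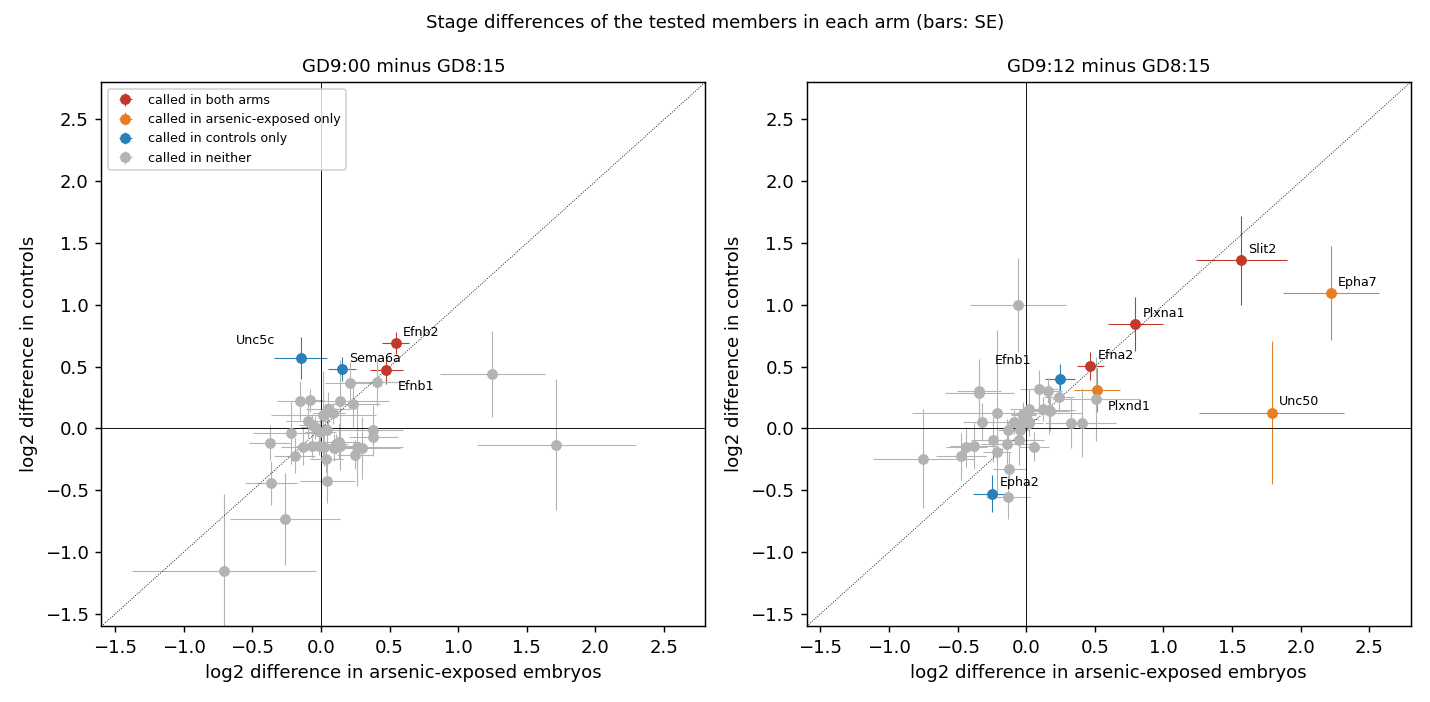
Stage differences (log2) of the 42 tested guidance genes in arsenic-exposed embryos (horizontal axis) and controls (vertical axis), for GD9:00 minus GD8:15 and GD9:12 minus GD8:15, with SE bars and colours for calls by limma. Efnb1 and Efnb2 in the left panel and Slit2, Plxna1 and Efna2 in the right one were called in both arms.

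The ephrin-B ligands Efnb2 and Efnb1 rose between GD8:15 and GD9:00. Efnb2, a ligand that marks arteries and rhombomere boundaries, had 134, 131, 127 and 154 in arsenic and 143, 133, 141 and 133 in control arrays at GD8:15. It had 198, 195 and 204 in arsenic and 251, 234, 217 and 190 in control arrays at GD9:00. At GD9:12 it had 153, 158, 146 and 137 in arsenic and 170, 150 and 141 in control arrays. All GD9:00 arrays of both arms lay above all arrays of the other stages. The step from GD8:15 to GD9:00 was 0.55 ± 0.098 (SE) in arsenic-exposed embryos (limma adjusted p = 0.00403) and 0.69 ± 0.09 in controls (adjusted p = 0.000114). Fitted on the arrays of the 2 groups alone, the arsenic step was not called (adjusted p = 0.129). The step to GD9:12 was -0.43 ± 0.098 (adjusted p = 0.0201) in arsenic-exposed embryos and -0.54 ± 0.098 in controls (adjusted p = 0.0021). The arsenic call of the second step was lost without GD9:00 replicate 1 or 3 or GD9:12 replicate 4, and with only the arrays of the 2 groups fitted (adjusted p up to 0.0721). The second step lay within code series 3 apart from control replicate 1 at GD9:12, and the control value was -0.61 with the code series as a block (adjusted p = 0.006). For the first step in controls the block left 0.66 with an adjusted p of 0.0637, resting on GD8:15 replicate 3, the only GD8:15 array of series 3, at 141. In arsenic-exposed embryos the code series and the first step cannot be told apart.

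Efnb1, a ligand from the X chromosome that sets tissue boundaries, had 159, 133, 155 and 149 in arsenic and 138, 134, 126 and 141 in control arrays at GD8:15. It had 215, 185 and 222 in arsenic and 210, 144, 202 and 199 in control arrays at GD9:00, and 180, 172, 195 and 159 in arsenic and 196, 170 and 169 in control arrays at GD9:12. Every later array lay above every GD8:15 array of its own arm, in arsenic by a margin too small to show at 159. The first step was 0.48 ± 0.12 (SE) in arsenic-exposed embryos (limma adjusted p = 0.0289) and 0.47 ± 0.11 in controls (adjusted p = 0.00983). With the code series as a block the control value was 0.57 and was not called (adjusted p = 0.246), nor was it with only the arrays of the 2 groups fitted (0.47, adjusted p = 0.0656). The arsenic call was lost without GD8:15 replicate 2 or 4 or GD9:00 replicate 1 or 3, under median centring, and with only the arrays of the 2 groups fitted (adjusted p up to 0.281). Between GD9:12 and GD8:15 the control difference was 0.40 ± 0.12 (adjusted p = 0.0467), a call lost without any 1 of the 7 arrays, under median centring and with the code series as a block. Embryo sex also differed between groups, as the Xist values above show, and its part in the values of this X-linked gene was not tested. Efnb3 fell short of a call in the overall control difference, at -0.56 ± 0.18 (adjusted p = 0.0616).

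Efna2, a lipid-anchored ligand of EphA receptors, rose between GD9:00 and GD9:12 in both arms. It had 157, 171, 147 and 148 in arsenic and 193, 163, 149 and 162 in control arrays at GD8:15, and 144, 159 and 163 in arsenic and 179, 176, 148 and 152 in control arrays at GD9:00. At GD9:12 it had 198, 241, 212 and 211 in arsenic and 227, 262 and 220 in control arrays. All GD9:12 arrays lay above all earlier arrays of either arm. The step from GD9:00 was 0.47 ± 0.11 (SE) in arsenic-exposed embryos (1.39-fold, limma adjusted p = 0.0185) and 0.53 ± 0.11 in controls (1.44-fold, adjusted p = 0.0039). The control call held in all 14 alternative settings run, with 0.45 to 0.58 when an array was left out, and the arsenic call was lost without GD9:00 replicate 1 or GD9:12 replicate 2, and with only the arrays of the 2 groups fitted (adjusted p up to 0.103). The control difference from GD8:15, 0.51 ± 0.11 (adjusted p = 0.00641), was not called without GD9:12 replicate 2 or with the code series as a block, where it was 0.69 (adjusted p up to 0.077). Efna1, Efna4 and Efna5 were not called between any stages.

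Epha7 rose 4.66-fold in arsenic-exposed embryos between GD8:15 and GD9:12, with the intensities given above. All GD9:12 arsenic arrays lay above all GD8:15 arsenic arrays, by 2.22 ± 0.35 (SE, limma adjusted p = 0.000509). In controls the GD9:12 arrays also lay above all GD8:15 arrays, by 1.09 ± 0.38 (2.13-fold), which did not pass (adjusted p = 0.0856). The arsenic call held in all 14 alternative settings run. The test of whether the arsenic effect changed between stages gave Epha7 an adjusted p of 0.795, so a difference between the arms was not shown. In arsenic-exposed embryos the GD8:15 arrays were of series 4 and the GD9:12 arrays of series 3, and stage and code series cannot be told apart there.

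Epha2, an EphA receptor of early epithelia, fell in controls between GD8:15 and GD9:12. It had 258, 174, 177 and 197 in arsenic and 186, 249, 264 and 228 in control arrays at GD8:15, and 195, 183 and 148 in arsenic and 217, 205, 180 and 190 in control arrays at GD9:00. At GD9:12 it had 153, 155, 202 and 165 in arsenic and 152, 155 and 172 in control arrays. The difference between GD9:12 and GD8:15 was -0.25 ± 0.14 (SE) in arsenic-exposed embryos (limma adjusted p = 0.244) and -0.53 ± 0.15 in controls (adjusted p = 0.0367). The control call held when GD8:15 replicate 1 was left out and ended without each of the 6 other arrays compared, with only the arrays of the 2 groups fitted, and with the code series as a block, where the difference was -0.69 (adjusted p up to 0.213). The F test of a change of the arsenic effect gave Epha2 an adjusted p of 0.89. Surface ectoderm markers had sums of 984 to 1210 in arsenic and 899 to 1021 in control arrays at GD9:12, and 1476 to 1922 in arsenic and 1744 to 2136 in control arrays at GD8:15, and Cdh1 and Krt19 fell in both arms. Their part in the Epha2 difference was not tested. The B receptors Ephb3, Ephb4 and Ephb6 were not called between any stages. Ephb3 spread widely within groups, with 302 to 2337 in arsenic and 330 to 1822 in control arrays at GD9:12.

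**Figure D4:**
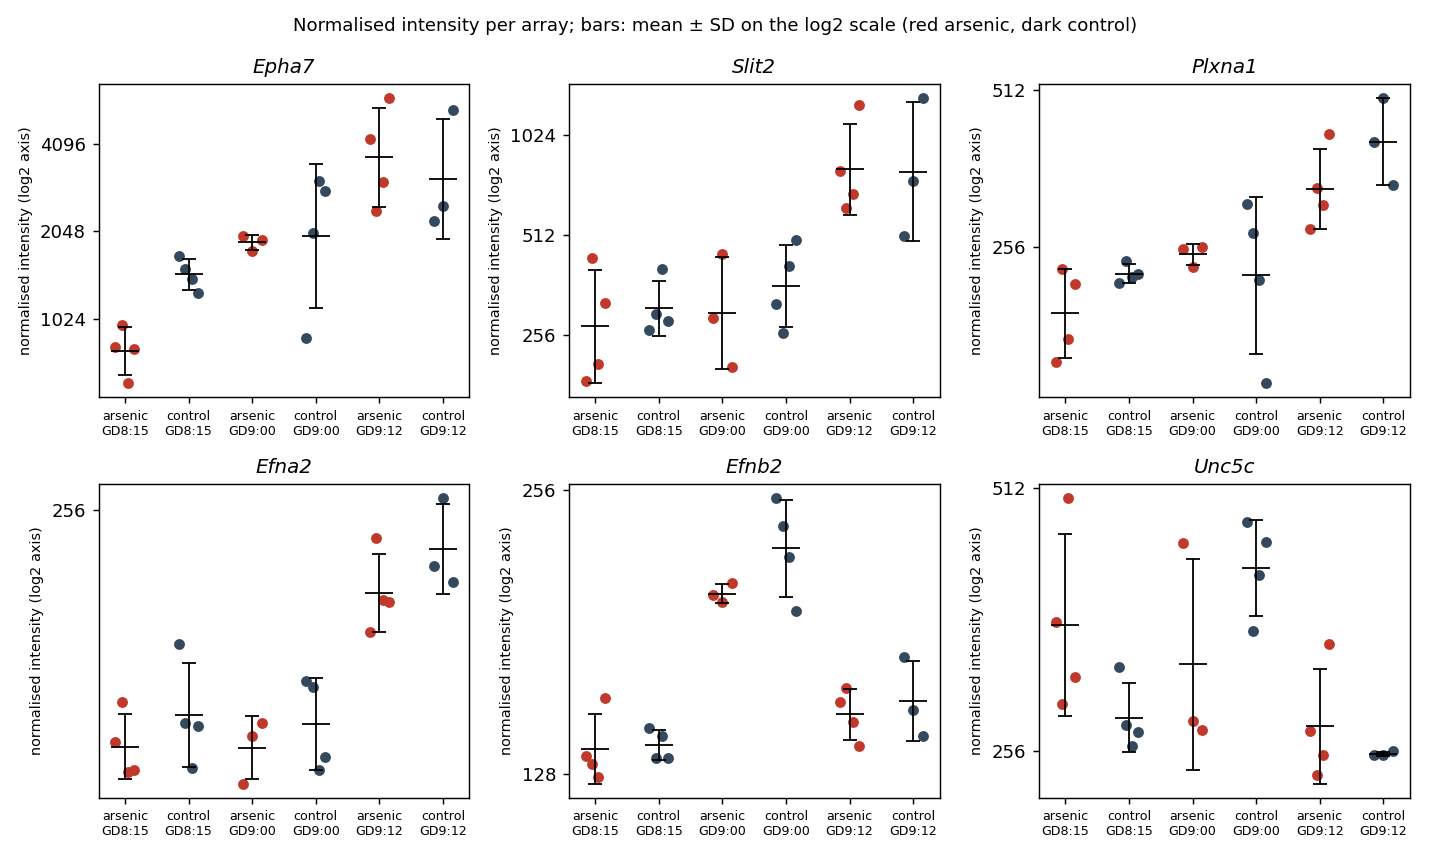
Normalised intensity (log2 axis) of Epha7, Slit2, Plxna1, Efna2, Efnb2 and Unc5c on each array, with arsenic (red) left of control (dark) at each stage and bars for the group mean and SD on the log2 scale. Group means of Epha7, Slit2, Plxna1 and Efna2 are highest at GD9:12 in both arms, and that of Efnb2 at GD9:00. The control arrays of Epha7 overlap between GD9:00 and GD9:12.

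Slit2, a secreted repellent of the ventral midline, rose between GD9:00 and GD9:12. It had 187, 437, 209 and 320 in arsenic and 265, 297, 405 and 283 in control arrays at GD8:15, and 289, 447 and 206 in arsenic and 317, 260, 414 and 493 in control arrays at GD9:00. At GD9:12 it had 799, 618, 678 and 1260 in arsenic and 508, 741 and 1320 in control arrays. All GD9:12 arrays lay above all earlier arrays of either arm. The step from GD9:00 was 1.43 ± 0.36 (SE) in arsenic-exposed embryos (2.7-fold, limma adjusted p = 0.0312) and 1.14 ± 0.36 in controls (2.2-fold, adjusted p = 0.0468). The difference from GD8:15 was 1.57 ± 0.33 in arsenic-exposed embryos (adjusted p = 0.00417) and 1.36 ± 0.36 in controls (adjusted p = 0.024). The arsenic difference from GD8:15 held in all 14 alternative settings run. The code series as a block was not among them. In arsenic-exposed embryos the GD8:15 arrays were of series 4 and the GD9:12 arrays of series 3, so stage and code series cannot be told apart there. The step in controls was lost without the filter on dim probes, with each array's floor subtracted, with only the arrays of the 2 groups fitted, and without GD9:00 replicate 1, 2 or 3 or GD9:12 replicate 2 or 3, with adjusted p up to 0.255, and ran from 0.76 to 1.45 over the arrays left out. The arsenic step was lost without GD9:00 replicate 1 or 3 or GD9:12 replicate 1 or 4, and with only the arrays of the 2 groups fitted (adjusted p up to 0.146). The control difference from GD8:15 was lost without GD8:15 replicate 1, 2 or 4 or GD9:12 replicate 2 or 3, and with the code series as a block, where it was 1.29 (adjusted p up to 0.38). The receptor Robo1 had 131 to 183 on all arrays and was not called, nor was Robo4, a receptor of vessels.

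Plxna1, which transmits class 3 semaphorin signals with neuropilins, had 154, 233, 170 and 217 in arsenic and 218, 240, 224 and 227 in control arrays at GD8:15. It had 253, 234 and 255 in arsenic and 309, 272, 221 and 140 in control arrays at GD9:00, and 277, 332, 308 and 422 in arsenic and 408, 495 and 336 in control arrays at GD9:12. The GD9:12 arrays were above all earlier arrays of their own arm. Plxna1 rose by 0.79 ± 0.20 (SE) in arsenic-exposed embryos (limma adjusted p = 0.0134) and 0.84 ± 0.22 in controls (adjusted p = 0.0216) between GD8:15 and GD9:12. The arsenic call held in all 14 alternative settings run, and the control call was lost without GD8:15 replicate 1 or GD9:12 replicate 1 or 2 and with the code series as a block, where the difference was 0.86 and rested on 1 GD8:15 array (adjusted p up to 0.389). The block was not run in arsenic-exposed embryos, where this stage difference and the code series cannot be told apart. Arsenic GD8:15 replicate 1 and control GD9:00 replicate 4 lay in low runs of signal, and with such values left out the control step from GD9:00 was 0.62 in place of 0.85 (adjusted p = 0.0215). The call of that control step was lost without GD9:12 replicate 1 or 2, with the code series as a block (0.85) and with only the arrays of the 2 groups fitted (0.85, adjusted p up to 0.119).

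Plxnd1, a receptor of vessels for Sema3e, had 196, 113, 155 and 197 in arsenic and 182, 178, 206 and 161 in control arrays at GD8:15. It had 173, 200 and 188 in arsenic and 289, 231, 243 and 186 in control arrays at GD9:00, and 240, 232, 250 and 203 in arsenic and 271, 189 and 223 in control arrays at GD9:12. The rise from GD8:15 to GD9:12 was called in arsenic-exposed embryos (0.52 ± 0.17 SE, limma adjusted p = 0.0445) and was 0.31 ± 0.18 in controls (adjusted p = 0.327). Without arsenic GD8:15 replicate 2, the lowest array, it was 0.35 and not called, and the call was also lost without GD8:15 replicate 3 or GD9:12 replicate 1, 2 or 3, without the filter on dim probes and with only the arrays of the 2 groups fitted. The same F test gave Plxnd1 an adjusted p of 0.891. Its ligand Sema3e had 185, 208, 209 and 221 in arsenic and 219, 208, 243 and 232 in control arrays at GD8:15, 204, 194 and 269 in arsenic and 208, 205, 198 and 197 in control arrays at GD9:00, and 244, 249, 208 and 275 in arsenic and 264, 232 and 317 in control arrays at GD9:12. Sema3e rose between GD9:00 and GD9:12 in controls (0.42 ± 0.12, adjusted p = 0.0357), and the value was 0.14 ± 0.12 in arsenic-exposed embryos (adjusted p = 0.667). The F test gave Sema3e an adjusted p of 0.847. The control call was lost without 6 of the 7 arrays compared in turn, GD9:12 replicate 2 being the exception, with the code series as a block and with only the arrays of the 2 groups fitted (adjusted p up to 0.209).

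Sema6a, a membrane semaphorin that binds A-type plexins, had 155, 146, 136 and 161 in arsenic and 111, 141, 147 and 140 in control arrays at GD8:15. It had 171, 164 and 163 in arsenic and 181, 209, 184 and 177 in control arrays at GD9:00, and 185, 164, 155 and 165 in arsenic and 175, 149 and 175 in control arrays at GD9:12. It rose between GD8:15 and GD9:00 in controls by 0.48 ± 0.096 (SE, limma adjusted p = 0.0035), and the value in arsenic-exposed embryos was 0.15 ± 0.10 (adjusted p = 0.461). The F test of a change of the arsenic effect gave Sema6a an adjusted p of 0.795. With the code series as a block the control value was 0.34 (adjusted p = 0.424). The remaining 11 tested semaphorins were not called between any stages.

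Unc5c, a netrin receptor that mediates repulsion, had 360, 290, 498 and 311 in arsenic and 319, 274, 259 and 269 in control arrays at GD8:15. It had 443, 277 and 271 in arsenic and 469, 351, 407 and 444 in control arrays at GD9:00, and 270, 241, 254 and 339 in arsenic and 253, 253 and 256 in control arrays at GD9:12. In controls all GD9:00 arrays lay above all arrays of the other stages, with a rise of 0.57 ± 0.17 (SE, limma adjusted p = 0.032) and a second step of -0.71 ± 0.19 (adjusted p = 0.0194). In arsenic-exposed embryos the steps were -0.15 ± 0.19 and -0.23 ± 0.19 (adjusted p = 0.729 and 0.624), and the arrays overlapped. The F test of a change of the arsenic effect between stages gave Unc5c the lowest p of the members, at an adjusted p of 0.744. The first control step was lost without 6 of the 8 arrays in turn, all but GD8:15 replicate 1 and GD9:00 replicate 2, and with the code series as a block, where it was 0.68 and rested on 1 GD8:15 array, replicate 3 (adjusted p = 0.499). The second was lost without GD9:12 replicate 1, 2 or 3, and with the block, where it was again -0.71 (adjusted p up to 0.0727). Unc5b, the vascular netrin receptor, was not called between any stages.

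Unc50, a membrane protein of the Golgi that is not a guidance receptor, had 869, 1258, 618 and 456 in arsenic and 2254, 1706, 2284 and 1724 in control arrays at GD8:15. It had 2941, 2762 and 1800 in arsenic and 3572, 329, 2416 and 3682 in control arrays at GD9:00, and 2262, 2565, 2358 and 3209 in arsenic and 1722, 2116 and 2755 in control arrays at GD9:12. All arsenic arrays at GD8:15 were below all controls (-1.41 ± 0.53 SE, limma adjusted p = 0.599). The rise from GD8:15 to GD9:12 was 1.79 ± 0.53 in arsenic-exposed embryos (adjusted p = 0.0319) and 0.13 ± 0.58 in controls (adjusted p = 0.924). The F test gave Unc50 an adjusted p of 0.777. Arsenic GD8:15 replicate 4 lay in a low run of signal, and with such values left out the rise was 1.55 and was not called. Leaving out GD8:15 replicate 3 or 4 or any GD9:12 array also ended the call (adjusted p up to 0.0866).

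Promoter windows are shown for Epha7, Slit2, Efna2 and Efnb2, which with Plxna1 were the genes with a stage call that held in all alternative settings run. For Epha7, Slit2 and Plxna1 that call was in arsenic-exposed embryos, where the code series as a block was not run. RefSeq windows on GRCm38.p6, from 250 bases before to 50 after the gene start, were found for 45 of the 51 members. Capitals mark the GC box (GGGCGG or CCGCCC) and the TATA box (TATAAA or TTTATA), each searched on both strands. The windows lie at chr4:28812881-28813180 on the plus strand for Epha7, chr5:47982905-47983204 on the plus strand for Slit2, chr10:80179232-80179531 on the plus strand for Efna2 and chr8:8661193-8661492 on the minus strand for Efnb2.
Epha7: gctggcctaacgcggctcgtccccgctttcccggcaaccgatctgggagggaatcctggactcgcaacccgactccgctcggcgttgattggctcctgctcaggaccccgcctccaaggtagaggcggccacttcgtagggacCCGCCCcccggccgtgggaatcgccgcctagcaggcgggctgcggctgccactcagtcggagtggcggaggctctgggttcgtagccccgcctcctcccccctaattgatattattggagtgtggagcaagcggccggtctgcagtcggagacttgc
Slit2: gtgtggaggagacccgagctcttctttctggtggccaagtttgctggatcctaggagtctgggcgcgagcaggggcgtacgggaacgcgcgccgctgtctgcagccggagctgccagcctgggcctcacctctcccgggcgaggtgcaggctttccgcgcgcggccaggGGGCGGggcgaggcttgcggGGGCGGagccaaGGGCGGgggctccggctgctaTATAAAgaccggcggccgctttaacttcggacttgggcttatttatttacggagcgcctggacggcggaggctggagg
Efna2: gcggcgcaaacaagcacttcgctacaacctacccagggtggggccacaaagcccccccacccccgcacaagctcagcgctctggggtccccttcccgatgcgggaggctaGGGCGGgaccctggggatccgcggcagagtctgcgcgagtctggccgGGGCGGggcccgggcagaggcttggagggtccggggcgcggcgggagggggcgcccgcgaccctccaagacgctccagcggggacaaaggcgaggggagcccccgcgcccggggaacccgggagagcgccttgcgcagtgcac
Efnb2: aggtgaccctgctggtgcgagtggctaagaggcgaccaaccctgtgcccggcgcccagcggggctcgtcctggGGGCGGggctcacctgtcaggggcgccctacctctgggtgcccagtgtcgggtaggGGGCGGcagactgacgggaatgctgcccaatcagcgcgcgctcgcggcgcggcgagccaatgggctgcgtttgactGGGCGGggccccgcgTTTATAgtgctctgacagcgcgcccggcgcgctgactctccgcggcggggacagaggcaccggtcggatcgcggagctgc
The GC box occurs once in Epha7, 3 times in Slit2, 2 times in Efna2 and 3 times in Efnb2, and in 35.7% of all 32851 windows. The TATA box occurs at position 223 of the Slit2 window and at position 221 of the Efnb2 window, in neither of the other 2, and in 13.6% of all windows. G and C made up 67% of the Epha7, 68% of the Slit2, 74.7% of the Efna2 and 72.3% of the Efnb2 window, beside a median of 52.7%. Efna2 and Slit2 share the GC box but not the TATA box, and Slit2 and Efnb2 share both. The part of these motifs in the stage differences was not tested.

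Other genes of the same pathways were read from 2 lists. Of 40 further guidance cues and receptors, 29 were on the array and 23 were tested, and of 61 effectors inside the cell, 40 were on the array and 38 tested. limma called 0 of either list in each arsenic comparison (0% of all probes). Between stages, Celsr3, an adhesion receptor of axon tracts, fell from GD8:15 to GD9:12 by 0.59 ± 0.11 (SE) in arsenic-exposed embryos (adjusted p = 0.00194) and by 0.62 ± 0.12 in controls (adjusted p = 0.00365). Flrt3, a membrane protein that binds UNC5 receptors, rose by 1.43 ± 0.40 over the same span in arsenic-exposed embryos (adjusted p = 0.0217), and the value was 1.36 ± 0.43 in controls (adjusted p = 0.0602). Between GD9:00 and GD9:12 its difference was 0.93 ± 0.43 in arsenic-exposed embryos (adjusted p = 0.277) and 1.64 ± 0.43 in controls (adjusted p = 0.0188). Cxcl12, a chemokine, rose by 1.15 ± 0.20 in arsenic-exposed embryos between GD8:15 and GD9:12 (adjusted p = 0.00115). It was not called in controls, where its value is not given here, and the F test of a change of the arsenic effect called 0 of the list. A difference between the arms was thus not shown, and stage and code series cannot be told apart in arsenic-exposed embryos. For that span 3 of the 23 (2 higher and 1 lower) were called in arsenic-exposed embryos and 1 (lower) in controls, against 13.8% and 7.71% of all probes.

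Among effectors, 7 of 38 (2 higher and 5 lower) were called between GD8:15 and GD9:12 in arsenic-exposed embryos, against 13.8% of all probes, and 4 (1 higher and 3 lower) in controls, against 7.71%. Crmp1, a cytoplasmic mediator of semaphorin signals, fell by 1.14 ± 0.19 (SE) in arsenic-exposed embryos (limma adjusted p = 0.000789) and by 0.80 ± 0.21 in controls (adjusted p = 0.0233). Gipc1, which binds neuropilin, fell by 0.43 ± 0.07 in arsenic-exposed embryos (adjusted p = 0.000667) and by 0.31 ± 0.075 in controls (adjusted p = 0.0156). Grb2, an adaptor of receptor kinases, fell by 0.59 ± 0.099 in arsenic-exposed embryos (adjusted p = 0.000762) and by 0.41 ± 0.11 in controls (adjusted p = 0.024). In arsenic-exposed embryos stage and code series cannot be told apart for these falls. For neither list are values with the code series as a block given here. Chn1, a Rac regulator downstream of EphA4, was called in controls at both steps, with 0.91 ± 0.11 from GD8:15 to GD9:00 (adjusted p = 8.16e-05) and -0.71 ± 0.12 from GD9:00 to GD9:12 (adjusted p = 0.00145). Its arsenic difference at GD9:00 was -0.58 ± 0.12 and did not pass (adjusted p = 0.157). Of the 7 neuron markers, 1 was called higher and 1 lower between GD8:15 and GD9:12 in controls, against 7.71% of all probes. The 7 progenitor markers also gave 1 called higher and 1 called lower.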

How the data were processed

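RNA of 22 samples was measured on one-colour CodeLink arrays after amplification, per the labels' protocols. The authors deposited linear intensities, rounded to whole numbers; scanner software, background correction and scaling method are not given in the sources used here. By the values, each array had been scaled to 1 mean per stage. The 838 values of 1 or 2 were set to missing as placeholders. Log2 intensities were quantile normalised, and testing required 2 or more measured values in every group and a mean above the lowest 25% of probes (7833 probes). limma 3.58.1 in R 4.3.3 (lmFit, eBayes) fitted 6 group means with 16 residual degrees of freedom and 11 contrasts, with Benjamini-Hochberg adjustment over all tested probes. Figures used Python 3.11.15 and matplotlib 3.10.9. The number of arrays limits the precision.

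The guidance genes, lists and markers were chosen with earlier results of these data known. Values on every array are given for the 14 of the genes called in any contrast, or among the 3 of lowest p in an arsenic contrast, that had the lowest p. Genes outside the families are among the 3 of lowest p of a list and contrast. For low runs, each log2 value was set against its probe's median over arrays, and a run is where the running median of these deviations, over 31 consecutive probes with a median above 8, lay below -0.75. A value stands for its probe: of 92 genes with 2 tested probes elsewhere on the array, the median correlation between the probes was 0.0489, and 42 pairs lay below 0.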

Additional observations from a re-analysis of the deposited data

Results flagged for a closer look

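Efnb1 in controls at GD9:00 had replicate 2 at a normalised intensity of 144, while the other 3 replicates lay between 199 and 210, so that this sample was far from the others of its group. Of 56 groups of 4 arrays examined over the genes given on every array, 1 was flagged, and chance flags about 1 in 20. The controls at GD8:15 had 126 to 141.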

How the results depend on the processing

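The arsenic comparisons gave 0 called guidance genes in every alternative run: median centring, the scaling of the authors, no filter on dim probes, placeholders kept, low runs left out, the code series as a block, only the arrays of the groups compared, and each array left out in turn. Of the called stage differences of guidance genes, and the arsenic differences of Epha7, Plxnc1, Unc50, Sema3c, Sema3f, Epha3, Ephb6, Ntn3 and Sema4a at the stage of their lowest p, none changed sign. Other named values were not rerun one by one. The code series block was not run for the stage differences of arsenic-exposed embryos, whose GD8:15 arrays were of series 4 and later arrays of series 3. The title code series as a block left 0 calls for GD9:00 minus GD8:15 in controls, 3 for GD9:12 minus GD9:00 in controls and 0 for GD9:12 minus GD8:15 in controls. With only the arrays of the 2 groups compared there were 3 calls for GD9:12 minus GD9:00 in controls, 1 for GD9:00 minus GD8:15 (Epha7, in place of Efnb1 and Efnb2) and 0 for GD9:12 minus GD9:00 in arsenic-exposed embryos, with fewer arrays to estimate the spread. Median centring left 1 (Efnb2) for GD9:00 minus GD8:15 in arsenic-exposed embryos. With 1 array left out, the counts in controls ran from 3 to 4, from 3 to 5 and from 0 to 4 for GD9:00 minus GD8:15, GD9:12 minus GD9:00 and GD9:12 minus GD8:15, the 0 being without GD9:12 replicate 2. In arsenic-exposed embryos they ran from 1 to 2, from 0 to 5 and from 4 to 7, the 0 being without GD9:00 replicate 1 and the 5 without GD9:00 replicate 2. The shares of all probes called in the same settings are not given here. The counts therefore do not show whether guidance genes lost or gained calls more than the array did. Subtracting each array's floor, chosen after seeing the data, changed no count by over 1.5 times and widened the steps of dim genes, to 0.98 for Efnb2 in controls. For the other losses of a call the cause was not tested. No paired analysis was possible because the labels give no replicate numbers shared between groups. Of the 42 tested members, 31 had a mean log2 intensity under 8.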
